A study of Stylophora pistillata with 24 samples.

Results

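The subject is gene3329, a vitellogenin-like gene of the reef coral Stylophora pistillata, followed across 8 groups of whole-organism samples. It was chosen by its identifier and its product name, and is 1 of the 33281 genes in the deposited count table. The authors' annotation ties it to NCBI gene 111321178 and gives it a length of 5403 bases. The study sequenced poly(A) RNA from planulae (swimming larvae), juveniles settled from planulae and adult colonies, with 3 libraries in each group. Deep planulae and deep adults were taken directly from the reef at 45 m, the mesophotic zone, and shallow planulae and shallow adults from the reef at 5 m. The juveniles all descended from 5 m planulae and lived in plastic settlement chambers on the reef. Translocated juveniles were grown at 45 m and control juveniles at 5 m, and both were collected at 8 days and at 60 days. Deep-origin juveniles were not analysed here. No genetic change or drug was applied. Whether the 3 libraries in a group came from different colonies or broods is not stated, so a p-value here reflects only the variation among these libraries, part of which may be technical.

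Vitellogenin is a large lipid transfer protein that egg-laying animals secrete and pack into oocytes as the main precursor of yolk. In many insects and vertebrates the growing oocyte takes it up through a receptor of the low-density lipoprotein (LDL) receptor family, and cathepsin proteases later cut it. In the stony coral Euphyllia ancora, yolk protein genes are transcribed in somatic cells of the mesenteries, around the oocytes, rather than in the oocytes themselves. Stylophora pistillata is a hermaphrodite that fertilises its eggs inside the polyp and broods the embryos until they leave as planulae.

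Library totals ran from 13572866 to 35778913 counts. Levels are given as CPM (counts per 1e+06 counts of the library) after TMM scaling, which corrects library sizes by a trimmed mean of log ratios, and as CPM per kilobase (RPKM) wherever genes are set against each other. The TMM factors were 0.895 to 1.36 in the 18 juvenile and adult libraries and 0.558 to 0.909 in the 6 planula libraries. Shallow planula library 1 stood apart from its group for both abundant yolk-named genes. Results of gene3329 that rest on shallow planulae, and some of other genes, are therefore also given without it.

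The mRNA of gene3329 was scarce in planulae and among the most abundant in every juvenile and adult library. The largest share was 0.605% of all counts, in a translocated 8-day juvenile library (exact Clopper-Pearson 95% interval 0.602% to 0.609%, which covers counting error only). The smallest was 0.000179%, or 47 counts, in a shallow planula library (interval 0.000132% to 0.000238%). Per unit of length it ranked between 32 and 367 among 26602 genes in the 18 juvenile and adult libraries, and between 6060 and 17055 in the 6 planula libraries.

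Deep planulae had 68.1, 71.7 and 23.2 CPM of gene3329 (54.3 ± 27.0, mean ± SD, n = 3), from 1788, 1544 and 453 counts. Shallow planulae had 43.0, 3.13 and 7.49 CPM (17.9 ± 21.9, n = 3), from 569, 47 and 94 counts. The planula groups overlapped, because shallow planula library 1 lay above deep planula library 3. This gave shallow planulae the widest relative spread of the 8 groups, 13.7-fold between the highest and lowest library.

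Juveniles were far above planulae. Translocated juveniles at 8 days had 3244, 5090 and 5490 CPM (4608 ± 1198, n = 3), and control juveniles at 8 days had 3022, 4054 and 1551 CPM (2876 ± 1258, n = 3). At 60 days, translocated juveniles had 923, 2760 and 3519 CPM (2401 ± 1335, n = 3), and control juveniles had 2006, 4002 and 2611 CPM (2873 ± 1024, n = 3). The 4 juvenile groups all overlapped each other, and the 923 CPM of translocated 60-day library 1 was the lowest value outside planulae.

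Adults, too, were far above planulae. Deep adults had 3089, 4146 and 1609 CPM (2948 ± 1274, n = 3), and shallow adults had 2302, 1909 and 2490 CPM (2234 ± 297, n = 3). All 3 shallow adult libraries lay within the range of the deep adults, and all 3 lay below the lowest translocated 8-day juvenile library. Their 1.3-fold spread was the narrowest of the 8 groups.

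**Figure D1:**
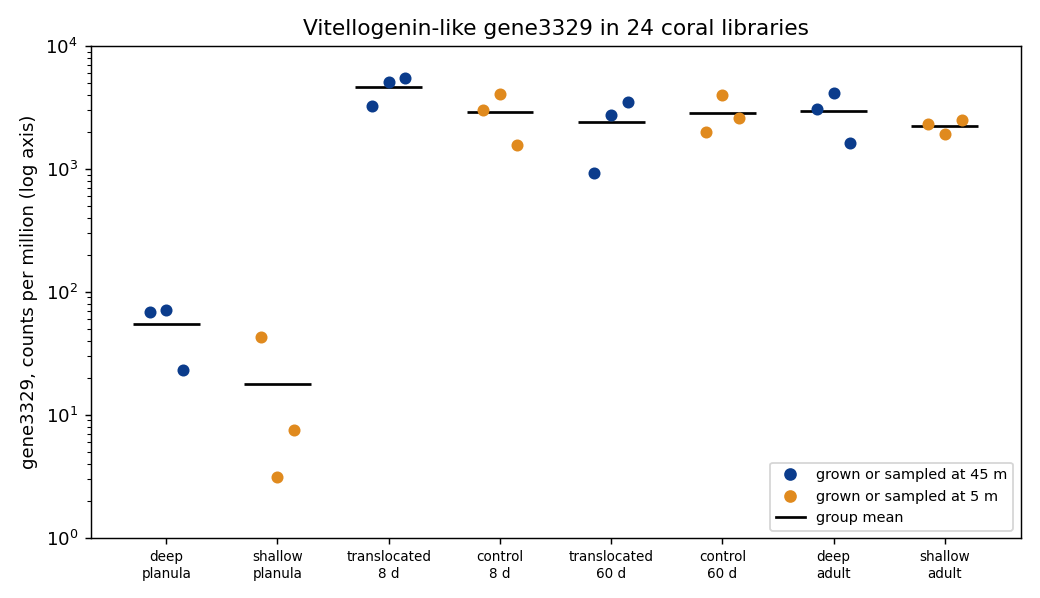
Level of gene3329 in each of the 24 libraries, in CPM on a log axis. Each dot is 1 library, coloured by the depth at which the coral was grown or sampled, and each bar is a group mean. The 18 juvenile and adult libraries lie between 923 and 5490 CPM and the 6 planula libraries between 3.13 and 71.7 CPM.

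Ordered by mean level, translocated 8-day juveniles came first, followed by deep adults, control 8-day juveniles, control 60-day juveniles, translocated 60-day juveniles, shallow adults, deep planulae and shallow planulae. Each group's range overlapped that of the next, with 1 exception. The step between shallow adults and deep planulae was 41.1-fold in the means, and the lowest juvenile or adult library was 12.9-fold above the highest planula library. In RPKM, a measure per length, the juvenile and adult means ran from 413 ± 54.9 in shallow adults to 853 ± 222 in translocated 8-day juveniles (SD, n = 3 each). Deep and shallow planulae had 10.1 ± 5.00 and 3.31 ± 4.05 RPKM (SD, n = 3 each). The samples are bulk RNA of whole organisms, in which a change in the number of cells that express a gene and a change in RNA per cell cannot be told apart.

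The first comparison asks how the gene differed between settled juveniles and planulae of the same 5 m origin. Control 8-day juveniles had 161-fold more gene3329 mRNA than shallow planulae (log2 fold change 7.33, SE 0.90, 95% interval 43.0-fold to 603-fold, edgeR quasi-likelihood test, Benjamini-Hochberg adjusted p = 2.79e-06). Translocated 8-day juveniles had 258-fold more than shallow planulae (log2 fold change 8.01, SE 0.93, 66.3-fold to 1000-fold, edgeR adjusted p = 1.43e-06). In neither comparison did the groups overlap. Such calls were common: 39.0% of the 25735 genes tested passed an adjusted p of 0.05 in control juveniles against shallow planulae, and 41.6% did in translocated juveniles against shallow planulae. The genes called higher were 21.0% and 22.0% of all genes tested. The gene ranked 997 by p and 225 by log2 fold change in the control comparison, and 776 and 172 in the translocated one. Without shallow planula library 1, the log2 fold changes were 9.09 in control and 9.77 in translocated juveniles. Juveniles were reared in chambers and planulae were not, and the effect of rearing cannot be told apart from that of age.

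Adults showed the same gap at both depths. Deep adults had 54.3-fold more gene3329 mRNA than deep planulae (log2 fold change 5.76, SE 0.84, 15.9-fold to 185-fold, edgeR adjusted p = 1.89e-05). Shallow adults had 125-fold more than shallow planulae (log2 fold change 6.97, SE 0.88, 34.1-fold to 458-fold, edgeR adjusted p = 2.89e-06), and 8.72 on the log2 scale without shallow planula library 1. Neither pair of groups overlapped. Of all genes tested, 44.6% were called between deep adults and deep planulae (23.9% upwards), and 54.3% between shallow adults and shallow planulae (30.9% upwards). The comparisons that involve shallow planulae share those 3 libraries, whereas the deep adults and deep planulae share no library with the control juveniles and shallow planulae.

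The scaling of the libraries moved these values. With library totals in place of TMM, the log2 fold change of gene3329 was 8.27 in control and 8.90 in translocated 8-day juveniles against shallow planulae, 6.26 in deep adults against deep planulae and 8.02 in shallow adults against shallow planulae, and all 4 passed. The median log2 fold change of all genes shifted by 0.981 in control 8-day juveniles against shallow planulae and by 0.478 in deep adults against deep planulae. The share of upward calls among all calls became 86.8%, against 53.7% with TMM, in the juvenile comparison, and 73.4%, against 53.7%, in the deep adult one. It became 86.6%, against 53.0%, for translocated 8-day juveniles and 84.8%, against 56.8%, for shallow adults. Across all alternatives the log2 fold changes of gene3329 in these 4 comparisons lay between 5.40 and 9.77.

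**Figure D2:**
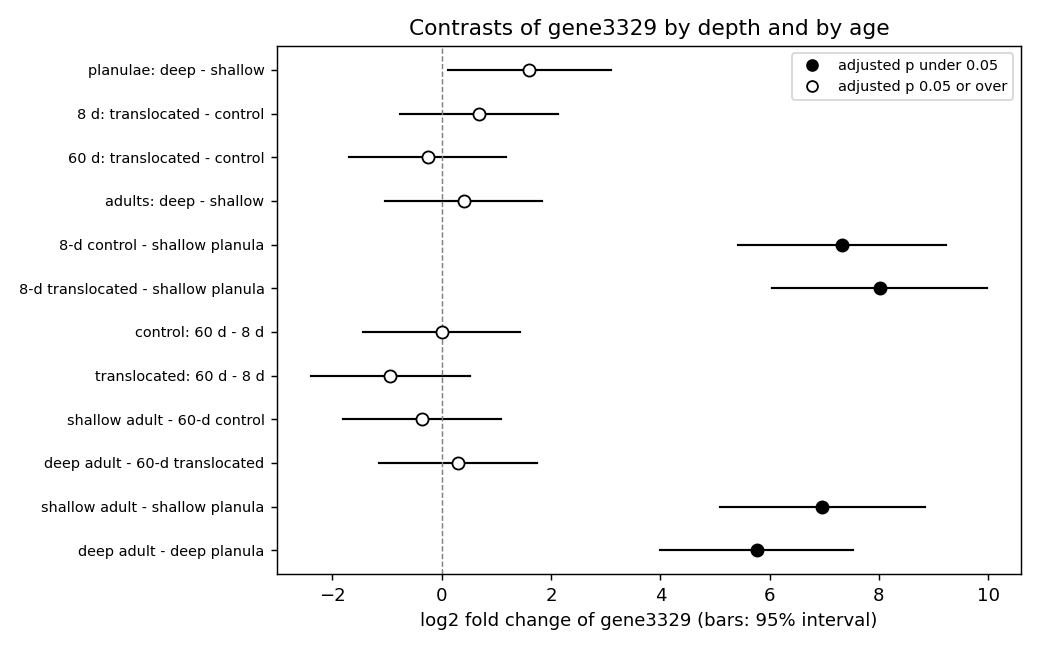
Log2 fold changes of gene3329 in 12 comparisons, with 95% intervals as bars. Filled dots passed an adjusted p of 0.05. The 4 comparisons with planulae as the lower group lie between 5.76 and 8.01, and the other 8 intervals either include 0 or, for deep against shallow planulae, begin at 0.12.

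The next comparisons ask whether depth was linked to the level of gene3329. No depth comparison passed the threshold. Deep planulae averaged 3.04-fold more than shallow planulae (log2 fold change 1.60, SE 0.70, 1.08-fold to 8.54-fold, edgeR adjusted p = 0.107), in a comparison that called 22.9% of genes. That result rests on 1 library: without shallow planula library 1 the log2 fold change was 3.36 (edgeR adjusted p = 0.00176), since the other 2 shallow libraries had under 8 CPM. Scaling by library totals also carried it past the threshold (log2 fold change 2.06, edgeR adjusted p = 0.0465), in a setting where the median gene shifted by 0.452 and the share of upward calls was 83.3%, against 54.5% with TMM.

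In settled corals the depth differences were small next to the spread of the libraries. Deep adults had 1.32-fold more gene3329 mRNA than shallow adults (log2 fold change 0.40, SE 0.68, 0.486-fold to 3.59-fold, edgeR adjusted p = 0.773), where 8.11% of genes were called. Translocated juveniles at 8 days had 1.60-fold more than controls (log2 fold change 0.68, SE 0.68, 0.588-fold to 4.37-fold, edgeR adjusted p = 0.961), in a comparison that called 1 gene, 0.00389% of those tested. At 60 days translocated juveniles had 0.836 times the level of controls (log2 fold change -0.26, SE 0.68, 0.308-fold to 2.27-fold, edgeR adjusted p = 0.899), where 2.36% of genes were called. That sign turned when either translocated library 1 (0.13) or control library 2 (0.06) was left out. These intervals include differences of more than 2-fold in either direction at 60 days, so a difference of that size was not detectable with 3 libraries a group.

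The depth effect itself was compared between stages. It was lower in adults than in planulae by a log2 difference of -1.204 (SE 0.97, edgeR adjusted p = 0.439, with 12.9% of genes called), and -2.96 (adjusted p = 0.0203) without shallow planula library 1. Between translocated and control juveniles it differed by log2 -0.94 at 60 days relative to 8 days (SE 0.96, edgeR adjusted p = 0.977, with 0.0777% of genes called).

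Once the corals had settled, no comparison of an older with a younger group passed the threshold. Control juveniles at 60 days had 0.999 times the level at 8 days (log2 fold change -0.0015, SE 0.68, 0.368-fold to 2.71-fold, edgeR adjusted p = 1), where 8.51% of genes were called. The sign of a value so near 0 carries no direction, and it turned in 4 of the 6 comparisons that each left out 1 library. Translocated juveniles at 60 days had 0.521 times the level at 8 days (log2 fold change -0.94, SE 0.69, 0.190-fold to 1.43-fold, edgeR adjusted p = 0.466), where 7.41% of genes were called. Shallow adults had 0.777 times the level of control 60-day juveniles (log2 fold change -0.36, SE 0.68, 0.286-fold to 2.11-fold, edgeR adjusted p = 0.716), against a background of 31.4% of genes called. Deep adults had 1.23 times the level of translocated 60-day juveniles (log2 fold change 0.30, SE 0.68, 0.452-fold to 3.34-fold, edgeR adjusted p = 0.790), with 23.8% of genes called. The last value turned to -0.09 without translocated library 1 and to -0.03 without deep adult library 2.

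Other yolk-named genes did not share this profile. The annotation holds 1 other vitellogenin name, vitellogenin-1-like (gene17505, 4544 bases), and 1 major yolk protein-like gene (gene8661, 4537 bases), named after the sea urchin yolk protein, which is related to transferrins and not to vitellogenin. No product name held apolipophorin or apolipoprotein B. The authors' annotation gives the gene ontology term for nutrient reservoir activity to 4 genes, these 3 and the uncharacterised gene15901.

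Vitellogenin-1-like gene17505 was mainly an adult transcript, although shallow adults overlapped shallow planulae (0.88 CPM in shallow adult library 2, 1.40 CPM in shallow planula library 2). Deep adults had 23.98, 206 and 53.7 CPM (94.6 ± 97.7, n = 3), and shallow adults had 2.44, 0.88 and 28.0 CPM (10.4 ± 15.2, n = 3). Means of planulae and juveniles lay between 0.11 CPM in control 60-day juveniles and 0.82 CPM in shallow planulae, with 1 deep planula and 1 control 60-day library at 0 counts. Deep adult library 2 and shallow adult library 3 were far above the other libraries of their groups.

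Against earlier stages grown or sampled at the same depth, the adult excess of gene17505 passed the test. The limits of rearing and origin given above also apply to its comparisons with juveniles. In deep adults it was 7.37 on the log2 scale over deep planulae (SE 1.35, edgeR adjusted p = 0.000228) and 8.76 over translocated 60-day juveniles (SE 1.49, adjusted p = 0.000373). Without deep adult library 2 these were 6.09 and 7.47, and without deep planula library 2 the first was 8.16. In shallow adults it was 6.38 over control 60-day juveniles (SE 1.40, edgeR adjusted p = 0.00228), and 3.74 without shallow adult library 3, 5.78 without control library 1 and 8.64 without control library 2. Over shallow planulae it was 3.63 (SE 1.19, edgeR adjusted p = 0.0144), a call that ended without shallow adult library 3 (0.99, adjusted p = 0.431) or without shallow planula library 3 (3.21, adjusted p = 0.0605). It was 4.26 without shallow planula library 2.

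Between depths, gene17505 averaged 9.08-fold higher in deep than in shallow adults (log2 fold change 3.18, SE 1.09, edgeR adjusted p = 0.0779), short of the threshold. DESeq2 put it past the threshold (log2 fold change 3.18, adjusted p = 0.0377). The value was 1.89 without deep adult library 2 and 5.82 (edgeR adjusted p = 0.00721) without shallow adult library 3. In adults its counts were at most 4.97% of those of gene3329, so nearly all vitellogenin-named reads came from gene3329. In shallow planula library 2 they were 44.7%, but there both genes were low, with 21 and 47 counts.

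Major yolk protein-like gene8661 was abundant in deep planulae, juveniles and adults, and lower and more variable in shallow planulae. Deep planulae had 1257, 2255 and 1380 CPM (1631 ± 544, n = 3), and shallow planulae had 760, 43.6 and 125 CPM (309 ± 392, n = 3). Translocated and control juveniles had 3059 ± 1048 and 1768 ± 639 CPM at 8 days, and 1438 ± 103 and 1048 ± 360 CPM at 60 days (SD, n = 3 each). Deep adults had 2250, 3420 and 1935 CPM (2535 ± 783, n = 3), and shallow adults had 930, 623 and 1007 CPM (854 ± 203, n = 3).

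The deep and shallow groups of gene8661 did not overlap in planulae or in adults. In planulae the level was 5.27-fold higher in deep than in shallow (log2 fold change 2.40, SE 0.66, edgeR adjusted p = 0.0132). It was 4.28 on the log2 scale without shallow planula library 1, and the call ended without shallow planula library 3 (2.02, adjusted p = 0.0665). It also ended when only the planulae entered the fit (log2 fold change 2.39, adjusted p = 0.0987). In adults the level averaged 2.97-fold higher in deep than in shallow (log2 fold change 1.57, SE 0.64, edgeR adjusted p = 0.141), which did not pass.

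The gap between planulae and later stages was narrower for gene8661 than the corresponding values of gene3329. Control 8-day juveniles had 5.72-fold more than shallow planulae (log2 fold change 2.52, SE 0.66, edgeR adjusted p = 0.00494, or 0.0598 when only these groups were fitted), and translocated ones 9.89-fold more (log2 fold change 3.31, SE 0.68, edgeR adjusted p = 0.000664). Without shallow planula library 1 these were 4.40 and 5.19. Deep adults had 1.55 times the level of deep planulae (edgeR adjusted p = 0.429), and shallow adults had 2.76 times the level of shallow planulae (edgeR adjusted p = 0.0590). The difference between the genes was not tested.

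Per unit of length, gene3329 was at 0.0141 to 0.0455 of the level of gene8661 in deep planulae and at 0.0475 to 0.0603 in shallow planulae. At 8 days the ratio was 1.21 to 1.46 in translocated and 1.10 to 1.52 in control juveniles. At 60 days it was 0.540 to 1.92 in translocated and 1.92 to 2.72 in control juveniles, which met at the rounded value of 1.92. In adults it was 0.698 to 1.15 in deep libraries and 2.08 to 2.57 in shallow libraries. The depth groups thus did not overlap in this ratio in planulae or in adults. With 3 libraries against 3, such non-overlap arises in 10% of random orders, and the ratio was not tested. Over 24 libraries the Pearson r of log2 CPM of the genes was 0.711 (Spearman rho 0.697), and it was 0.613 over the 18 libraries without planulae. The libraries fall into 8 groups, and these values describe them only.

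The uncharacterised gene15901 was highest in shallow adults, with 35.1, 42.9 and 19.1 CPM. Deep adults had 3.26, 7.62 and 0.41 CPM, and the means of the other 6 groups lay between 0.35 and 1.36 CPM. It thus differed from all 3 other reservoir-term genes in where it was highest.

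**Figure D3:**
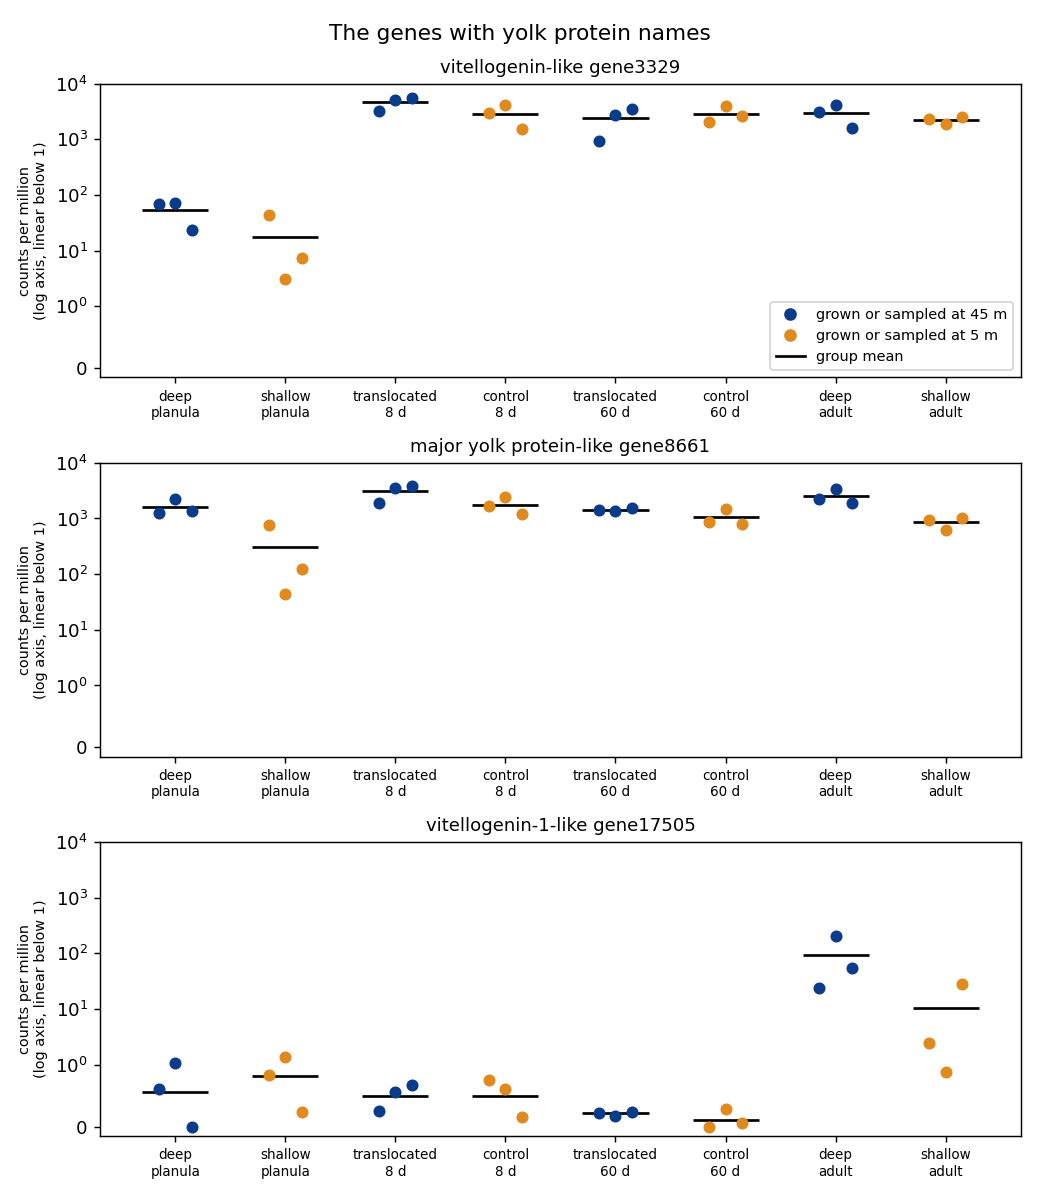
Levels of gene3329, gene8661 and gene17505 in the 24 libraries, in CPM on a log axis that is linear below 1. Dots are libraries, coloured by depth, and bars are group means. In planulae gene3329 stays at or below 71.7 CPM while gene8661 reaches 2255 CPM, and gene17505 exceeds 20 CPM in 4 adult libraries only.

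Genes of the yolk pathway were followed through lists of product names. Each list is set against all genes tested, in control 8-day juveniles against shallow planulae (21.0% called higher, 18.1% lower, median log2 fold change 0.16) and in deep adults against deep planulae (23.9% higher, 20.7% lower, median 0.13). Names are automatic homology names, and no name in these lists shows that a protein handles yolk in this coral.

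Lipoprotein receptor names include the family that takes up vitellogenin in other animals. Of 38 tested, 10 were higher and 3 lower in control 8-day juveniles than in shallow planulae (median log2 fold change 1.06), and 17 were higher and 4 lower in deep adults than in deep planulae (median 1.22). With library totals these splits were 27 and 1 (median 2.01), and 19 and 2 (median 1.71). The 39 names include a myomegalin, which matched by its letters and is a centrosome and Golgi protein. LRP6-like gene2763, named after a Wnt co-receptor, had 23.8 ± 2.42 CPM in control 8-day juveniles and 3.53 ± 2.69 CPM in shallow planulae (SD, n = 3 each; log2 fold change 2.76, SE 0.34, edgeR adjusted p = 2.65e-06, and 3.58 without shallow planula library 1). LRP1B-like gene9355 had 8.07 ± 2.97 CPM in deep adults and 0.53 ± 0.29 CPM in deep planulae (SD, n = 3 each; log2 fold change 3.92, SE 0.39, edgeR adjusted p = 2.11e-07).

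Between planulae of different depth, 34.2% of receptor names were called higher and 5.26% lower, and most were not called. Of the 38, 13 were higher, 2 lower and 23 not called in deep against shallow planulae (15 higher and 1 lower with library totals), where 12.5% of all genes were higher and 10.4% lower (medians 0.71 and 0.09). LRP1-like gene9128 had 83.0 ± 21.7 CPM in deep and 34.5 ± 4.66 CPM in shallow planulae (log2 fold change 1.27, SE 0.20, edgeR adjusted p = 0.00029). It was also higher in deep adults, with 76.4 ± 19.0 CPM against 34.0 ± 1.92 CPM in shallow adults (log2 fold change 1.17, SE 0.20, edgeR adjusted p = 0.00105, or 0.0595 when only adults were fitted). LRP6-like gene2763 and gene2762 were higher by 2.43 (SE 0.33, edgeR adjusted p = 9.05e-05) and 1.51 (adjusted p = 0.000308) on the log2 scale in deep planulae, the first by 3.25 without shallow planula library 1. LRP1B-like gene9355 went the other way, with 0.53 CPM in deep against 20.4 CPM in shallow planulae (log2 fold change -5.25, SE 0.40, edgeR adjusted p = 1.17e-07). In adults it was again lower at depth, with 8.07 CPM in deep against 44.2 CPM in shallow adults (log2 fold change -2.45, SE 0.34, edgeR adjusted p = 0.000142). Over all receptors in adults, 1 was higher and 2 were lower at depth, where 3.77% of all genes were higher and 4.33% lower. Upward calls were 46.5% of all calls there, or 34.6% with library totals.

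Cathepsins, lysosomal proteases that cut vitellogenin in some egg-laying animals, had more higher than lower calls after the planula. Of 10, 6 were higher and 1 lower in control 8-day juveniles than in shallow planulae (9 and 0 with library totals), although 3 in all were called without control library 2 and 4 without shallow planula library 2. In deep adults 3 were higher and 1 lower than in deep planulae, and the other 6 were not called. The 30% higher there was near the 23.9% of all genes, and 10% were lower against 20.7%. Cathepsin L1-like gene4271 had 677 ± 37.4 CPM in control 8-day juveniles and 58.3 ± 37.3 CPM in shallow planulae (log2 fold change 3.54, SE 0.41, edgeR adjusted p = 1.63e-06, and 4.21 without shallow planula library 1). In deep adults it had 909 ± 297 CPM, against 166 ± 71.4 CPM in deep planulae (log2 fold change 2.45, SE 0.39, edgeR adjusted p = 5.69e-05). Cathepsin B-like gene20517 had 173 ± 22.5 CPM in deep adults and 24.3 ± 2.79 CPM in deep planulae (log2 fold change 2.83, SE 0.22, edgeR adjusted p = 1.2e-08).

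Egg names had calls in both directions, and their split depended on the comparison and the scaling. Of 13 names of egg coats, oocytes and egg jelly receptors, 1 was higher and 4 were lower in control 8-day juveniles than in shallow planulae, and 5 were lower in deep adults than in deep planulae with the other 8 not called. With library totals in place of TMM the juvenile split was 5 higher and 3 lower. Under TMM it was 3 higher and 4 lower in translocated 8-day juveniles against shallow planulae, and 4 higher and 5 lower in shallow adults against shallow planulae. In deep against shallow planulae 5 were higher and 2 lower (38.5% and 15.4%, against 12.5% and 10.4% of all genes). The leading member, sperm receptor for egg jelly-like gene18412, is named after a sea urchin sperm protein. It had 4.31 ± 0.79 CPM in deep adults and 97.6 ± 45.4 CPM in deep planulae (log2 fold change -4.50, SE 0.46, edgeR adjusted p = 2.98e-07). A second gene of that name, gene13210, rose in control 8-day juveniles to 22.1 ± 1.72 CPM, against 1.94 ± 1.97 CPM in shallow planulae (log2 fold change 3.51, SE 0.48, edgeR adjusted p = 1e-05, and 4.74 without shallow planula library 1). The summed level of the list was 76.0 to 132 CPM in deep adults and 241 to 792 CPM in deep planulae.

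Germ cell and meiosis names had calls in both directions, with a split that depended on the scaling. Of 42, 9 were higher and 5 lower in control 8-day juveniles than in shallow planulae, and 14 were higher and 7 lower in deep adults than in deep planulae. The juvenile count was 8 in all without shallow planula library 3, 9 without shallow planula library 2, and 25 higher and 2 lower with library totals. In deep adults library totals gave 21 higher and 3 lower. Nanos-like gene6237, named after a germ line regulator, had 106 ± 19.3 CPM in control 8-day juveniles and 41.8 ± 9.14 CPM in shallow planulae (log2 fold change 1.35, SE 0.30, edgeR adjusted p = 0.00127). Piwi-like gene3892, of a family that silences transposons in germ and stem cells, had 190 ± 11.3 CPM in control 8-day juveniles and 318 ± 23.2 CPM in shallow planulae (log2 fold change -0.75, SE 0.14, edgeR adjusted p = 0.000366), but its sign turned with library totals (0.25, adjusted p = 0.243). Meiotic nuclear division protein-like gene7813 was higher in deep adults than in deep planulae, at 7.44 ± 2.55 against 1.74 ± 0.41 CPM (log2 fold change 2.09, SE 0.37, edgeR adjusted p = 0.000149).

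Among members chosen after their values were seen, 2 of the most abundant were strongly lower after the planula. Meiosis-specific nuclear structural protein 1-like gene6514, known from mouse sperm tails and motile cilia, had 72.9 CPM in control 8-day juveniles and 385 CPM in shallow planulae (log2 fold change -2.40, SE 0.29, edgeR adjusted p = 2.52e-06). Meiosis expressed gene 1-like gene3725, known from mouse sperm formation, had 105 CPM in control 8-day juveniles and 897 CPM in shallow planulae (log2 fold change -3.10, SE 0.55, edgeR adjusted p = 0.000153). The list also took in helicases of other DDX numbers, which are not germ line helicases.

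The 7 list members named for the synaptonemal complex, HORMA domain proteins or DMC1, which act in meiotic chromosome pairing and recombination, were also singled out after their values were seen. Synaptonemal complex protein 1-like gene4094 had 0.60, 21.6 and 19.8 CPM in deep adults, and 0.056, 0.43 and 12.3 CPM in shallow adults. Synaptonemal complex protein 3-like gene7212 had 0.33, 6.04 and 20.6 CPM in deep adults, and 0.28, 0.057 and 18.6 CPM in shallow adults. For both genes deep adult libraries 2 and 3 and shallow adult library 3 were high and the other 3 adult libraries low. The same 3 libraries were the highest adult ones for synaptonemal complex central element protein 2-like gene324 (3.69, 22.9 and 4.41 CPM). They were also the highest for HORMA domain-containing gene11233 (2.27, 2.36 and 1.42 CPM) and DMC1-like gene7148 (4.01, 7.64 and 3.34 CPM). Not all members followed this: synaptonemal complex protein 1-like gene23109 had 0.76, 1.30 and 0.49 CPM in deep adults, and 2.97, 2.14 and 1.39 CPM in shallow adults. Synaptonemal complex protein 2-like gene17571 had 2.45, 37.8 and 7.96 CPM in deep adults, and 6.92, 1.08 and 10.3 CPM in shallow adults. The 3 libraries in which gene4094 and gene7212 were high had the highest adult levels of vitellogenin-1-like gene17505, at 206, 53.7 and 28.0 CPM, with deep adult library 1 close behind at 23.98 CPM, while gene3329 had 4146, 1609 and 2490 CPM in them and 3089, 2302 and 1909 CPM in the other 3 adult libraries. Against deep planulae, all of the 7 genes but gene23109 (edgeR adjusted p = 0.751) were called higher in deep adults (edgeR adjusted p 0.00366 to 0.017). Of all genes, 23.9% were higher there. The calls of gene324, gene4094 and gene7212 each ended when certain single libraries were left out. None of the 7 genes was called between deep and shallow adults (edgeR adjusted p 0.267 to 0.864). Control 60-day juveniles also had 10.1, 10.4 and 16.1 CPM of gene7212, at 0.111 CPM of gene17505 on average. For gene4094, control 60-day library 3 had 12.0 CPM and translocated 60-day library 2 had 7.40 CPM. The other 60-day libraries had 0.363 to 1.44 CPM of it.

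Sperm and testis names were more often called lower than higher after the planula under TMM scaling. Of 66, 8 were higher and 28 lower in control 8-day juveniles than in shallow planulae (median log2 fold change -0.62). In deep adults 16 were higher and 24 lower than in deep planulae, but the median was 0.30, against 0.13 for all genes. With library totals these splits became 21 and 21 (median 0.38), and 27 and 22. Members that were lower in the juveniles include sperm flagellar protein 1-like gene24835 (log2 fold change -2.45, edgeR adjusted p = 3.67e-08) and sperm-associated antigen 6-like gene13050 (-3.10, adjusted p = 1.29e-07), both chosen after their values were seen and both named after proteins of flagella and motile cilia. The list also took in names that matched by their letters, such as spermine synthase-like gene476, a polyamine enzyme.

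Of 17 lipid synthesis and storage names, 6 were higher and 1 lower in control 8-day juveniles than in shallow planulae (4 in all without shallow planula library 2), and 4 were higher and 1 lower in deep adults than in deep planulae. With library totals these splits were 13 and 0, and 8 and 1. Fatty acid synthase-like gene19910 had 37.6 ± 6.93 CPM in control 8-day juveniles and 5.99 ± 1.82 CPM in shallow planulae (log2 fold change 2.65, SE 0.40, edgeR adjusted p = 3.39e-05). The fatty acid elongase gene20645 was lower in deep than in shallow planulae, at 18.3 ± 1.11 against 38.9 ± 5.47 CPM (log2 fold change -1.09, SE 0.21, edgeR adjusted p = 0.00116).

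Steroid enzymes and nuclear receptors, which control vitellogenin genes in vertebrates and insects, moved in both directions. Of 51, 17 were higher and 11 lower in control 8-day juveniles than in shallow planulae (23 and 7 with library totals), and 11 were higher and 11 lower in deep adults than in deep planulae (19 and 8 with library totals). Steroid 17-alpha-hydroxylase-like gene25298 had 0.57 ± 0.032 CPM in deep adults and 83.7 ± 20.3 CPM in deep planulae (log2 fold change -7.17, SE 0.37, edgeR adjusted p = 1.38e-10). In control 8-day juveniles it had 19.8 ± 0.40 CPM, against 75.2 ± 4.51 CPM in shallow planulae (log2 fold change -1.92, SE 0.28, edgeR adjusted p = 1.93e-05). The 3-beta-hydroxysteroid dehydrogenase-like gene4213 had 10.1 ± 1.89 CPM in deep and 84.9 ± 12.6 CPM in shallow planulae (log2 fold change -3.07, SE 0.42, edgeR adjusted p = 8.47e-05). It had 14.6 ± 0.25 CPM in control 8-day juveniles (log2 fold change -2.54 against shallow planulae, SE 0.41, edgeR adjusted p = 5.87e-05).

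Some marker lists of other cells also differed between planulae and later stages, though not all of them in both comparisons. Their part in the difference of gene3329 was not tested. Of 33 motile cilia names, 2 were higher and 25 lower in control 8-day juveniles than in shallow planulae (4 and 21 with library totals), with summed levels of 1210 to 1260 CPM against 6910 to 9720 CPM. In deep adults 4 were higher and 24 lower than in deep planulae, with sums of 1490 to 1910 CPM against 7000 to 9790 CPM. Axonemal dynein heavy chain 7-like gene20898, a motor of cilia, was lower by log2 -1.60 in control 8-day juveniles (SE 0.17, edgeR adjusted p = 7.04e-07) and by log2 -1.94 in deep adults (SE 0.18, adjusted p = 8.19e-08). Dynein heavy chain 3-like gene5023 was lower by log2 -1.88 in control 8-day juveniles (SE 0.19, adjusted p = 2.23e-07) and by log2 -1.68 in deep adults (SE 0.19, adjusted p = 7.64e-07).

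Skeleton-forming and digestive names were more often higher than lower in juveniles. Of 10 skeletal matrix names tested, 5 were higher in control 8-day juveniles than in shallow planulae and the other 5 not called, with sums of 1030 to 1900 CPM against 51.2 to 105 CPM. In deep adults 2 were higher and 2 lower than in deep planulae, with sums of 410 to 711 against 164 to 1930 CPM. Skeletal aspartic acid-rich protein-like gene5242 had 503 ± 149 CPM in control 8-day juveniles and 0.66 ± 0.37 CPM in shallow planulae (log2 fold change 9.56, SE 0.83, edgeR adjusted p = 5.2e-08). In deep adults it was higher by 3.995 on the log2 scale than in deep planulae (SE 0.63, adjusted p = 4.8e-05), or by 5.66 without deep planula library 3. Galaxin-like gene13931, named after a coral skeletal protein, had 181 ± 104 CPM in deep adults and 7.42 ± 1.25 CPM in deep planulae (log2 fold change 4.61, SE 0.82, edgeR adjusted p = 0.000161).

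Of 34 digestive names, 15 were higher and 3 lower in control 8-day juveniles than in shallow planulae, with sums of 476 to 657 CPM against 350 to 373 CPM (21 and 2 with library totals). In deep adults 8 were higher and 2 lower than in deep planulae (12 and 2 with library totals), with sums of 287 to 431 CPM against 229 to 263 CPM. Chymotrypsinogen-like gene9949, a digestive protease precursor, had 24.8 ± 27.7 CPM in deep adults and 0.15 ± 0.11 CPM in deep planulae (log2 fold change 7.32, SE 0.90, edgeR adjusted p = 2.9e-06, and 5.83 without deep adult library 3). It was also higher by 3.79 in control 8-day juveniles than in shallow planulae (SE 0.78, adjusted p = 0.000706), or by 5.05 without shallow planula library 2. The only nematocyte name, gene10427, summed to between 0.325 and 1.17 CPM in control 8-day juveniles and between 0 and 0.378 CPM in shallow planulae (edgeR adjusted p = 0.156).

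The genes most like gene3329 were found by the Pearson r of log2 CPM (prior count 2) over the 24 libraries, among 13095 informatively named genes of at least 1 CPM on average. The measure is a description: the libraries share 8 groups, and the gap between planulae and other stages carries most of it. The closest was gene14425, a protein with MAM and LDL-receptor class A domains, at r = 0.981 (Spearman rho 0.858). It had 55.2 CPM on average in deep planulae, 27.9 in shallow planulae, and between 340 and 463 CPM in the other 6 groups. Its r was 0.685 over the 18 libraries without planulae and 0.844 for the deviations of all 24 from their group means.

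After it came futsch-like gene14565 (0.972), dipeptidase 1-like gene15828 (0.965), golgin-like gene6496 (0.960), glutathione hydrolase-like gene13473 (0.958) and gene4011 (0.955), dipeptidase 1-like gene15827 (0.955) and growth hormone secretagogue receptor-like gene9608 (0.955). Glutathione hydrolases cleave the glutamyl group of glutathione at the cell surface, and dipeptidase 1 cuts the dipeptide that remains. Over the 18 libraries without planulae these 7 genes had r between 0.249 and 0.629. In all, 147 of the 13095 genes had r above 0.9.

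The genes with the most opposite pattern were intraflagellar transport protein 52 homolog gene9240, which builds cilia (r = -0.972), sulfatase-modifying factor 2-like gene9715 (-0.967) and apoptosis-inducing factor 2-like gene1254 (-0.966). The level of gene9240 was 121 CPM on average in deep planulae and 173 CPM in shallow planulae, and between 38.1 and 53.2 CPM in the other 6 groups.

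A second measure used only how libraries of a group differed from their group mean. The highest values were those of APOBEC1 complementation factor-like gene23126 (r = 0.945), CUB and sushi domain-containing gene1347 (0.933), T-box factor TBX1-B-like gene2396 (0.932), receptor-type tyrosine phosphatase F-like gene16096 (0.921) and forkhead box C2-B-like gene18259 (0.920). Only 9 of the 13095 genes exceeded 0.9, and the median was -0.03. For gene8661 this r was 0.839 and for gene17505 it was 0.364. Shallow planulae, where library 1 stood apart, had the widest spread, 13.7-fold for gene3329 and 17.4-fold for gene8661. They therefore weigh most in this measure, which was not computed without that library. The same limit applies to the r of deviations of gene14425.

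**Figure D4:**
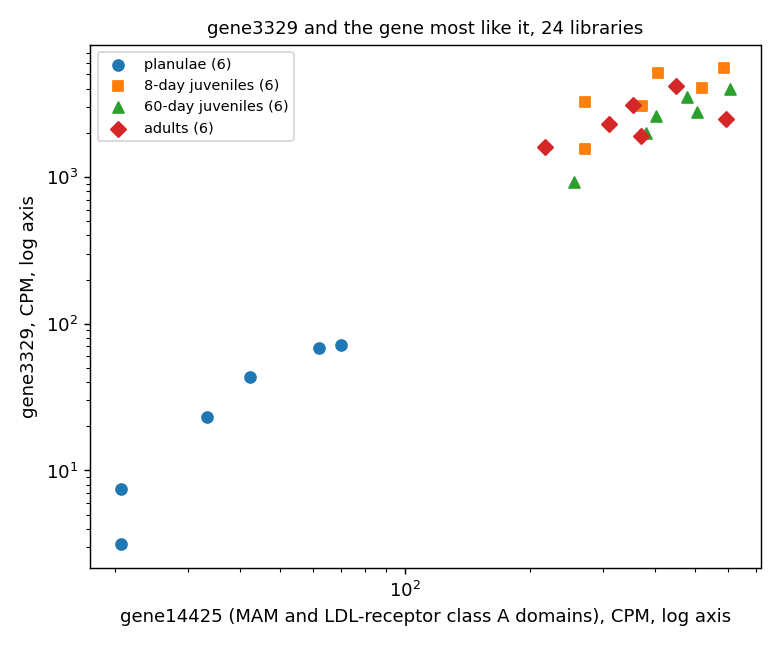
Level of gene3329 against that of gene14425, the gene most like it, in CPM on log axes. Each point is 1 library, with shape and colour for the stage (6 libraries each). Planula libraries lie at the lower left and all 18 others at the upper right, where r was 0.685.

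The genes next to gene3329 had smaller log2 fold changes. In the gene order of the RefSeq assembly jaStyPist1.2, used for order only, the neighbours with a match in the files were the autophagy enzyme gene ATG10 (gene3327), a single-stranded DNA-binding protein 3-like gene (gene3328), a transmembrane serine protease gene (gene3330) and histone deacetylase 3-like gene3331. In control 8-day juveniles against shallow planulae their log2 fold changes were 0.41, 0.32, 1.32 and -0.87, of which the last alone passed (edgeR adjusted p = 0.00196). In deep adults against deep planulae they were -0.27, 0.46, 2.04 and -0.12, where gene3328 (adjusted p = 0.0162) and gene3330 (adjusted p = 0.0258) passed, both higher in adults. The values of gene3329 were 7.33 and 5.76.

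The authors' deposited table gives gene3329 a log2 fold change of 0.43 in deep over shallow adults (adjusted p = 0.803). In the authors' deposited table the value is -5.84 for deep planulae over deep adults (adjusted p = 6.24e-13) and -6.97 for shallow planulae over shallow adults (adjusted p = 4.52e-18), both with planulae on top of the ratio. For gene17505 the authors' deposited table gives 3.20 in deep over shallow adults (adjusted p = 0.0805).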

How the data were processed

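Per the labels' protocols, poly(A) RNA of whole corals (integrity number above 7.7) was made into libraries with molecular identifiers. The submitters' processing notes name cutadapt, Trimmomatic, FastQC, MultiQC and DESeq2. Not given in the sources used here are the aligner, counter, genome build, strand setting and handling of molecular identifiers, so reads of overlapping or near-identical genes may be shared. The authors deposited raw counts for 33281 genes, 1031 of them with no count. A second table deposited by the authors holds product names, gene lengths, FPKM values, a signal of library-scaled fragments adjusted by size factors, and log2 fold changes with adjusted p-values, per the file headers. The FPKM and signal values were not used. For all 26602 genes the authors' columns for deep against shallow planulae hold the same values as those for deep planulae over adults, and were not used, and 9 broken lines were dropped. Of 24389 NCBI gene numbers, 21217 were in the reference gene table.

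The deposited counts were fitted with edgeR 4.0.16 (R 4.3.3). Genes were filtered with filterByExpr (25735 kept) and scaled by TMM. All 24 libraries entered 1 quasi-likelihood fit of 8 group means (16 residual degrees of freedom). Adjusted p-values are Benjamini-Hochberg over all genes tested, with a threshold of 0.05, 2-sided. The SE is the log2 fold change divided by the square root of F, and the 95% intervals from it are approximate. Depth allowed 47 to 137460 counts of gene3329 a library. No 2 libraries of the same group agreed within sampling noise. Alternatives were other scalings, no filter, fits of only the groups compared, a replicate block, DESeq2 1.42.0 and leaving out each library. No sequence or coordinate is given, since the build of the files is unknown here.

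The gene, the lists and the tests were chosen with earlier results of these data known. Named genes were, from each list, up to 4 called members with the smallest adjusted p in a planula, adult or 60-day depth comparison, the genes most and least like gene3329, and every other vitellogenin name. The text gives the members among these that bear on the comparisons shown. Exceptions are said to be chosen after their values were seen, and gene8661 and gene15901 were named for their yolk product name or reservoir term.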

Additional observations from a re-analysis of the deposited data

How the results depend on the processing

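For gene3329, 168 of 180 alternative values over 14 comparisons kept their direction and their side of the threshold, including all those of later stages against planulae. Deep against shallow planulae passed with library totals (2.06) and ran from 1.11 to 3.36 when single libraries were left out, passing without shallow planula library 1. The adult minus planula depth difference ran from -2.96 to -0.71, and passed without that library. The others that turned sign were never called: control juveniles by age (0.052 with the replicate block, -0.32 to 0.32 without single libraries), 60-day depth (-0.64 to 0.13) and deep adults against 60-day juveniles (-0.092 to 0.68). The sign of gene3892 turned with library totals (0.25). The cause was not tested. Of 341 alternatives for other named genes, 330 stayed as they were, 9 lost the call, 1 gained it and 1 turned. Fitting only the compared groups moved the count of calls either way (2646, against 2191, by age in control juveniles and 10576, against 10048, in control 8-day juveniles against shallow planulae), with the largest moves downwards (462, against 2086, between adult depths, 18, against 608, at 60 days, 1891, against 6118, in deep adults against 60-day juveniles, 7525, against 11471, in deep adults against deep planulae, and 1187, against 3328, for the depth difference). DESeq2 called more (3547 between adult depths, 1671 at 60 days, 95, against 1, at 8 days, 3527, against 2191, and 3297, against 1907, by age in control and translocated juveniles). Replicate numbers are shared between groups, but same-numbered libraries did not deviate together (r -0.157 to 0.257 over 12 comparisons), so the block is no pairing. With it the counts were 5866, against 5896, between planula depths and 1858, against 2086, between adult depths.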
